A study of Mus musculus and Homo sapiens with 12 samples.

Results

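UV-B irradiation of NTERT cells, an immortalized line of human keratinocytes, was compared with no treatment (NT) by counting the reads of 260 human tRNA genes in a genome-wide tRNA-charging assay. The NT group held 3 libraries from untreated cells, and the UV-B group held 3 libraries from cells that received 400 J/m2 of UV-B and then recovered for 3 h. These were 6 of the 12 libraries of the study. The others came from mouse embryonic fibroblasts (MEF) that were untreated or treated with 100 nM halofuginone (HF). The HF treatment lasted 6 h per the labels and 3 h per the figure legends of the study. Both NTERT groups were grown in low calcium medium with keratinocyte growth supplement. The labels do not say whether the libraries of a group came from separate cultures, so the p-values measure the spread between these libraries. The counts cover tRNA genes alone, and the keratinocyte label could therefore not be checked against marker genes.

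All 260 genes had reads in each of the 6 libraries. A gene is named by its amino acid, its anticodon in DNA letters, a number for its sequence and a number for its copy, as in Ser-CGA-3-1. Charging was compared for the 168 genes with a mean of at least 50 reads that carried an end, which held 99.7% of such reads, and the other 92 genes were not tested for charging. Of the 168 genes, 2 reached this minimum in the NT mean only and 2 in the UV-B mean only. The other measures used the 219 genes with a mean of at least 50 reads of any kind. Many genes of a family differ at few positions, so reads could have been split among them by the alignment.

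An aminoacyl-tRNA synthetase attaches each amino acid to the CCA end of its tRNAs, and the charged tRNA then brings the amino acid to the ribosome. When an amino acid runs short, uncharged tRNA accumulates and can activate GCN2, a kinase that phosphorylates eIF2 and lowers translation initiation. Keratinocytes are the skin cells that meet sunlight, and UV irradiation is a known activator of GCN2. The comparison addressed which tRNAs were less charged after UV-B. In the assay, periodate oxidation and deacylation remove the last A from an uncharged tRNA, whereas the amino acid protects a charged tRNA. Reads that end in CCA therefore counted as charged, and those that end in CC as uncharged.

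The 6 libraries held from 253693 to 1992671 reads on tRNA genes, which were 1.33% to 4.66% of their reads, and from 119750 to 1151329 reads with an end. The 2 ends stand in columns without names. The reading used here gave a log2 change of -2.31 for tRNA-Pro under HF in the MEF libraries, the only amino acid of 21 with a negative change, and HF is known to inhibit prolyl-tRNA synthetase. UV-B library 1 stood apart from the rest in charging. Over the 168 genes, its log2 ratios of charged to uncharged reads correlated with those of the other libraries with r from 0.581 to 0.794 (5 pairs), whereas the 10 pairs without it gave 0.820 to 0.908. Charging in UV-B library 1 lay above all NT libraries in 106 of the 168 genes, against 24 in UV-B library 2 and 31 in UV-B library 3. It lay below all NT libraries in 25 genes, against 67 and 69. The median distance from the NT mean was 9.30 percentage points in UV-B library 1, -2.87 in UV-B library 2 and -3.91 in UV-B library 3. Charging differences are therefore also given without it where they moved by more than 1.5 times or changed sign.

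**Figure D1:**
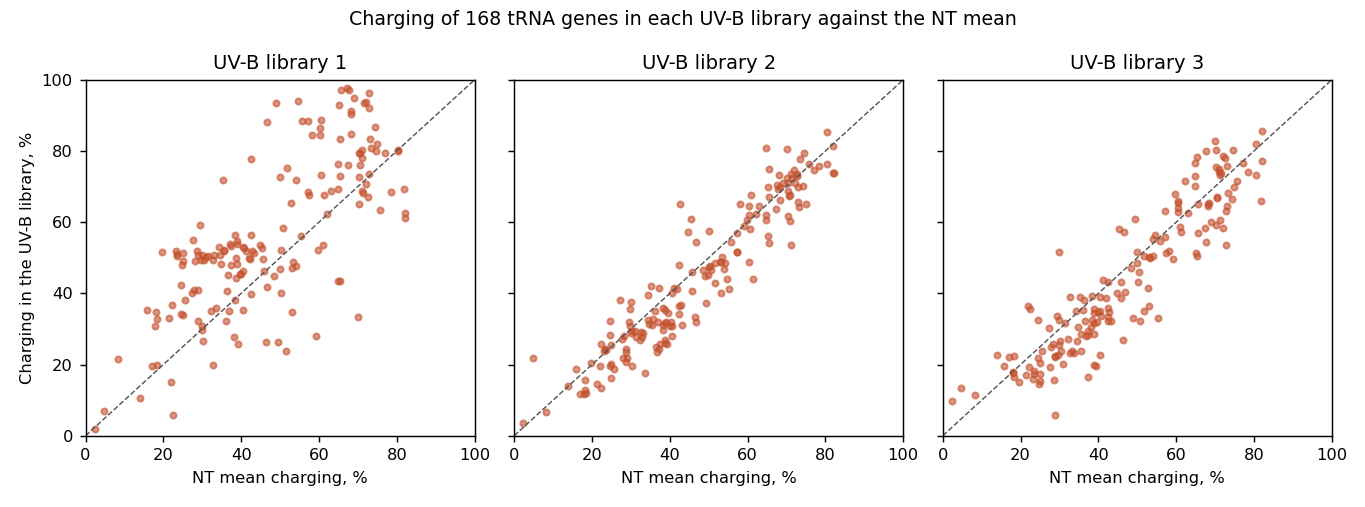
Charging of the 168 tested tRNA genes (reads ending in CCA as % of reads ending in CCA or CC) in each UV-B library, plotted against the mean of the 3 NT libraries; each point is a gene and the dashed line marks equal values. Genes scatter most widely around the line in UV-B library 1, where 106 genes lay above all NT libraries, compared with 24 and 31 in UV-B libraries 2 and 3.

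Charging of the whole tRNA pool gave no common direction. The percentage of charged reads was 57.6%, 55.2% and 53.9% in NT cells and 68.2%, 53.8% and 50.9% after UV-B. The difference of the means was 2.08 percentage points (p = 1, two-sided exact permutation test, for which 0.1 is the smallest p with 3 libraries against 3). It was -3.22 percentage points without UV-B library 1.

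By amino acid, no tRNA pool passed the test for a difference in charging. Of 21 amino acids, counting selenocysteine (SeC) and with initiator and elongator Met together, limma called 0 (0%) at an adjusted p of 0.05, with 0 at an unadjusted p under 0.05. Quasi-binomial regression of the reads and the unequal-variance test named in the methods also called 0. In the study that test was applied to isoacceptors (genes grouped by anticodon), and charging of Ser-TGA was reported as significantly lower after UV-B. The study also reported quantitative PCR of tRNA-Ser-TGA as further support, with no significant change for tRNA-Asn as a control. Those PCR measurements are not part of the counts used here. The unequal-variance test was not run by isoacceptor here. By isoacceptor, a grouping added after the data had been seen, limma called 0 of 47 (0%) for charging. The NT means ran from 22.8% for Pro to 71.9% for Lys, and the UV-B means from 22.6% to 73.4% for the same amino acids. The log2 ratio was higher after UV-B for 10 amino acids and lower for 11, with a median difference of -0.038. Without UV-B library 1, it was higher for 5 and lower for 16, with a median of -0.23.

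**Figure D2:**
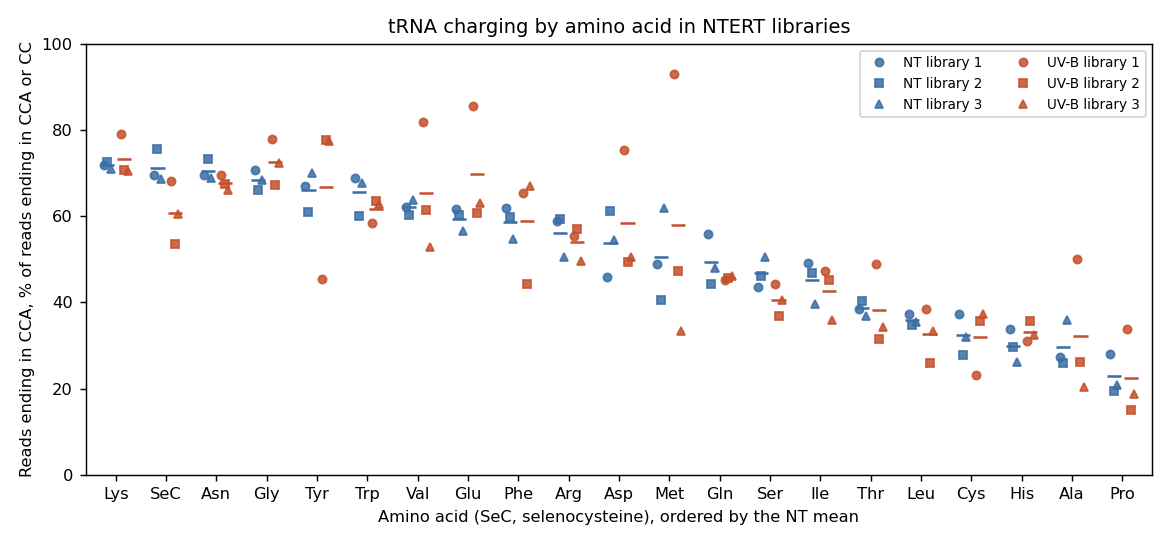
Percentage of charged reads by amino acid in the 3 NT libraries (blue) and the 3 UV-B libraries (orange), with a bar at each group mean; the symbol gives the library number. UV-B library 1 (orange circles) reached 93.0% for Met and 85.5% for Glu, and only SeC shows all UV-B libraries below all NT libraries.

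SeC and Ser had the lowest unadjusted p-values among the amino acids with lower charging, and the same enzyme, seryl-tRNA synthetase, charges both tRNAs. On tRNA-SeC the serine is then converted to selenocysteine, which enters selenoproteins at UGA codons. Charging of tRNA-SeC was 69.5%, 75.6% and 68.7% in NT cells and 68.1%, 53.5% and 60.6% after UV-B. All UV-B libraries lay below all NT libraries, UV-B library 1 only just, as for 1 of the 21 amino acids (4.76%), whereas no amino acid had all UV-B libraries above (0%). The log2 difference was -0.68 (standard error 0.31, 95% interval -1.41 to 0.057, adjusted p = 0.924), and without UV-B library 1 it was -0.91 (adjusted p = 0.0550). For Ser, the values were 43.5%, 46.1% and 50.6% in NT cells and 44.3%, 37.0% and 40.6% after UV-B, so that UV-B library 1 lay within the NT range. The log2 difference for Ser was -0.36 (standard error 0.25, 95% interval -0.96 to 0.24, adjusted p = 0.924). Subtracting the median of each library moved all amino acids up by 0.34 on the log2 scale, which left -0.34 for SeC and -0.02 for Ser.

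The 10 tRNA-Ser genes that passed the minimum, of 18 in the files, differed widely from each other. Their NT means ran from 4.76% for Ser-CGA-3-1 to 61.3% for Ser-GCT-3-1. The log2 difference was below 0 for 9 of the 10, with a median of -0.32, beside a median of 0.079 over all 168 genes. Without UV-B library 1, 9 of the 10 were below 0, with a median of -0.45, beside -0.21 over all 168 genes. The exception was Ser-CGA-3-1, which was charged at 3.54%, 5.56% and 5.19% in NT cells and at 6.90%, 21.7% and 13.4% after UV-B. These values rest on 29 to 135 reads with an end, and the 95% Wilson interval of the highest, 10 of 46 reads, was 12.3% to 35.6%. Its log2 difference was 1.56 (standard error 0.50, adjusted p = 0.999), with all UV-B libraries above all NT libraries, and 1.97 (adjusted p = 0.127) without UV-B library 1. Summed over its genes, the Ser-CGA isoacceptor was charged at 22.9%, 21.5% and 24.5% in NT cells and at 26.3%, 32.3% and 27.2% after UV-B. The log2 difference was 0.42 (adjusted p = 0.986 in limma). It was the 1 of 47 isoacceptors with all UV-B libraries above all NT libraries, and 1, SeC-TCA, had all below.

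Ser-GCT-6-1 and Ser-CGA-1-1 showed the opposite order. Ser-GCT-6-1 was charged at 36.3%, 53.8% and 49.3% in NT cells and at 26.3%, 33.3% and 26.9% after UV-B, a log2 difference of -1.07 (standard error 0.41, adjusted p = 0.999). Ser-CGA-1-1 was charged at 49.3%, 59.1% and 46.6% in NT cells and at 23.7%, 42.9% and 35.2% after UV-B, a log2 difference of -1.06 (standard error 0.45, adjusted p = 0.999). Both genes had all UV-B libraries below all NT libraries, and both rest on few reads, from 22 to 203 per library. The other 7 genes had overlapping groups and log2 differences from -0.51 for Ser-GCT-4-1 to -0.13 for Ser-AGA-1-1, and without UV-B library 1 from -0.70 for Ser-GCT-2-1 to -0.017 for Ser-GCT-1-1. Among them was Ser-TGA-2-1, the only tested gene of its anticodon, at -0.33, or -0.45 without UV-B library 1. Summed over the genes of this anticodon, charging was 43.3%, 31.9% and 33.9% in NT cells and 27.6%, 32.5% and 33.3% after UV-B. The groups overlapped, and NT library 2 had 47 of these reads with an end. Wilson intervals cover counting error only.

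Over all 168 genes, limma called 0 (0%) at an adjusted p of 0.05 for charging. The 3 genes at an unadjusted p under 0.05 were the tRNA-Ser genes Ser-CGA-3-1, Ser-GCT-6-1 and Ser-CGA-1-1. Quasi-binomial regression and the test named in the methods called 0 as well. The UV-B libraries lay above all NT libraries for 8 genes (4.76%) and below for 6 (3.57%). The genes below were Ser-GCT-6-1, Ser-CGA-1-1, SeC-TCA-1-1, Lys-TTT-2-1, Pro-TGG-1-1 and Thr-CGT-1-1. The log2 difference was above 0 for 97 genes and below 0 for 71; without UV-B library 1, it was above 0 for 46 and below 0 for 122, and 63 genes had the opposite sign from that with all libraries.

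Glu, Cys and Gly are the amino acids that build glutathione, the main thiol that protects cells against oxidation. Charging of tRNA-Glu, the most abundant tRNA in these counts, was 61.7%, 60.2% and 56.5% in NT cells and 85.5%, 60.8% and 63.1% after UV-B. UV-B library 1 was far above the other libraries. The log2 difference was 0.77 (standard error 0.52, 95% interval -0.45 to 1.99, adjusted p = 0.924), and without UV-B library 1 it was 0.15. All 7 tRNA-Glu genes had a log2 difference above 0 (median 0.78), against 4 of the 7 without UV-B library 1 (median 0.20). In Glu-TTC-14-1 and Glu-TTC-4-1 the UV-B libraries all lay above the NT libraries. Glu-TTC-14-1 was charged at 42.9%, 46.9% and 50.1% in NT cells and at 88.1%, 54.5% and 57.4% after UV-B, a log2 difference of 1.38, or 0.54 without UV-B library 1.

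tRNA-Gly was charged at 70.7%, 66.2% and 68.5% in NT cells and at 78.0%, 67.3% and 72.5% after UV-B, with overlapping groups. The log2 difference was 0.30 (95% interval -0.37 to 0.96), and 0.098 without UV-B library 1. For Cys, the values were 37.3%, 27.8% and 32.1% in NT cells and 23.1%, 35.7% and 37.4% after UV-B. The log2 difference for Cys was -0.043 (95% interval -0.86 to 0.77), with UV-B library 1 the lowest of the 6 libraries, and 0.27 without it.

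Asn was charged at 69.6%, 73.3% and 68.8% in NT cells and at 69.6%, 67.4% and 66.1% after UV-B. His, by contrast, was charged at 33.8%, 29.7% and 26.1% in NT cells and at 31.0%, 35.7% and 32.5% after UV-B. The log2 differences were -0.19 (95% interval -0.75 to 0.36) for Asn and 0.22 (95% interval -0.38 to 0.82) for His. Trp rested on a mean of 178 reads, lay between 58.3% and 69.0% in the 6 libraries and had a log2 difference of -0.25, or -0.15 without UV-B library 1. In none of the 3 were the groups separate.

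Met had the widest spread. Charging was 48.9%, 40.5% and 61.9% in NT cells and 93.0%, 47.4% and 33.5% after UV-B, so that both the highest and the lowest of the 6 values were from UV-B libraries. The log2 difference was 0.84 (standard error 1.14, 95% interval -1.85 to 3.52), and without UV-B library 1 it turned to -0.60 (95% interval -1.36 to 0.16). Nearly all of these reads came from the initiator tRNA, which starts translation at AUG codons. The initiator gene iMet-CAT-1-1 was charged at 48.0%, 37.3% and 61.6% in NT cells and at 93.4%, 44.9% and 33.0% after UV-B. The other initiator gene, iMet-CAT-2-1, with a mean of 141 reads, was charged at 42.7%, 29.0% and 55.8% in NT cells and at 77.6%, 65.0% and 32.2% after UV-B. Their log2 differences were 0.89 (95% interval -1.70 to 3.48) and 0.95 (95% interval -0.74 to 2.65), and without UV-B library 1 they were -0.60 and 0.33. Summed over the elongator Met genes, which bring Met to internal codons, charging was 64.7%, 75.2% and 72.1% in NT cells and 89.9%, 71.1% and 59.2% after UV-B.

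Among the other genes with the lowest unadjusted p-values, the differences were -1.09 for Lys-TTT-2-1, -0.90 for Ile-TAT-3-1 and -0.77 for Pro-TGG-1-1 on the log2 scale, and 0.97 for Leu-CAG-1-1, 0.67 for Arg-TCT-4-1 and 0.58 for Cys-GCA-2-1. Without UV-B library 1, Leu-CAG-1-1 was at 0.34 and Ile-TAT-3-1 at -0.60. Pro-TGG-1-1 was charged at 40.9%, 40.8% and 39.8% in NT cells and at 35.3%, 28.1% and 22.6% after UV-B. It had the narrowest NT range of these genes, and all UV-B libraries lay below it. Lys-TTT-2-1 was charged at 74.4%, 92.6% and 78.8% in NT cells and at 69.2%, 73.9% and 65.9% after UV-B, from as few as 13 reads in a library. Of the 10 genes with the most reads in NT cells, 9 had log2 differences above 0, from 0.12 for Gly-CCC-1-1 to 0.89 for iMet-CAT-1-1, and Gln-CTG-3-1 had -0.26. This count rested on UV-B library 1: without it 5 of the 10 lay above 0, with a median of 0.017 in place of 0.41.

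Genes that carry the same amino acid could differ widely in charging. In NT cells the tRNA-Gly genes ran from 2.36% for Gly-GCC-5-1 to 73.1% for Gly-TCC-3-1, and the tRNA-Leu genes from 8.29% for Leu-AAG-3-1 to 67.6% for Leu-CAA-3-1. Gly-GCC-5-1 also had the highest NT share of reads without either end among the tRNA-Gly genes (81.0%), whereas Leu-AAG-3-1 had the lowest of its family (32.1%). The SD between NT libraries of a gene was 5.21 percentage points at the median, and 10.0 points between UV-B libraries. The SD was larger after UV-B in 135 of 168 genes; the SD of UV-B libraries 2 and 3 alone was 3.70 points at the median. The NT and UV-B means correlated with r = 0.945 over the 168 genes, which share libraries and are not independent.

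The reads that carried neither end form the second measure. They are reads on a tRNA gene that stopped before CCA or CC, or otherwise lacked both, and the deposited counts do not say which. Over the whole pool they made up 42.4%, 52.8% and 42.2% of the reads in NT libraries and 37.2%, 43.2% and 40.8% in UV-B libraries. The difference was -5.43 percentage points (p = 0.3, two-sided exact permutation test), and -1.94 points without NT library 2, the highest of the 6. The median over genes differed by -4.54 points, and by -1.48 points without NT library 2. All UV-B libraries lay below all NT libraries, but NT library 1 and UV-B library 2 had nearly the same value (48.1% each; p = 0.1 in the exact test, the smallest it allows, and adjusted p = 0.7 over the 7 whole-pool values).

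By amino acid, the share of reads lacking either end had a log2 difference below 0 for 18 of 21 amino acids, and limma called 0 (0%) at an adjusted p of 0.05. Gln and Cys had unadjusted p-values under 0.05 and were the 2 amino acids (9.52%) with all UV-B libraries below all NT libraries; none had all above (0%). Quasi-binomial regression and the test named in the methods called 0. The level itself differed strongly between families: in NT cells it ran from 8.30% for Ala to 75.0% for Ser. Subtracting the library medians moved all log2 differences up by 0.28, and the differences below are given without it.

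**Figure D3:**
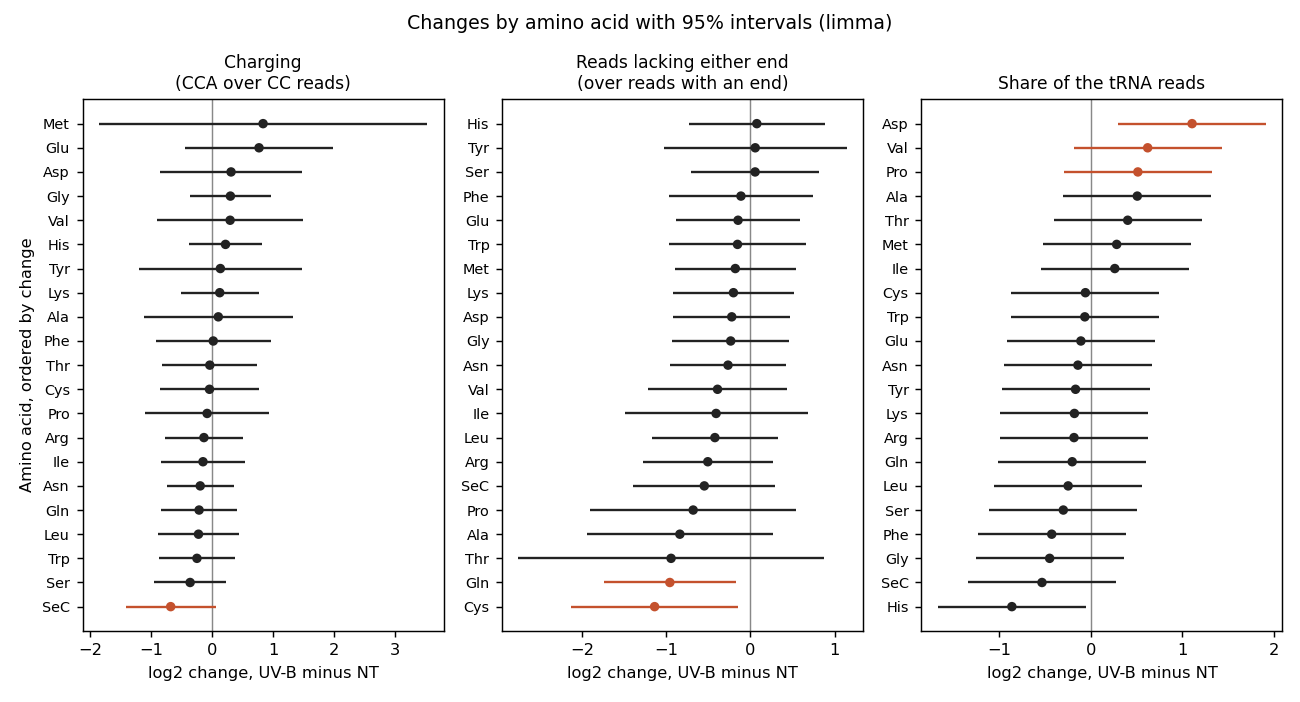
log2 differences between UV-B and NT by amino acid, with 95% intervals from limma (n = 3 libraries per group), for charging (left), reads lacking either end (middle) and share of the tRNA reads (right). Orange marks amino acids whose groups did not overlap: SeC at -0.68 for charging, Gln at -0.96 and Cys at -1.14 for reads lacking either end, and Asp at 1.11, Val at 0.62 and Pro at 0.52 for the share. For the share, overlap was read before scaling by the trimmed mean of M values, and the differences were taken after it. No point passed an adjusted p of 0.05.

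For Gln, which glutaminyl-tRNA synthetase of the multi-synthetase complex charges, reads lacking either end made up 29.5%, 37.6% and 37.0% in NT cells and 24.9%, 24.5% and 15.9% after UV-B. The log2 difference of these reads to reads with an end was -0.96 (standard error 0.35, 95% interval -1.74 to -0.17, adjusted p = 0.296). It ran from -1.13 to -0.69 when each library was left out in turn, the value nearest to 0 being the one without UV-B library 3. With the library medians subtracted it was -0.68 (adjusted p = 0.612).

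Of the 10 tRNA-Gln genes with enough reads, of 11 in the files, 8 had a log2 difference below 0, and 6 had all UV-B libraries below all NT libraries. Over all 219 genes, 26 (11.9%) lay below in this way and 3 (1.37%) above. The 6 genes hold both anticodons: Gln-CTG-1-1, Gln-CTG-3-1 and Gln-CTG-4-1, and Gln-TTG-1-1, Gln-TTG-2-1 and Gln-TTG-3-1. Gln-CTG-3-1, the most read of them, had 30.1%, 31.6% and 36.8% of its reads without an end in NT cells and 20.8%, 22.3% and 16.6% after UV-B. Gln-TTG-3-1 had 17.4%, 25.9% and 18.8% in NT cells and 12.5%, 13.3% and 9.34% after UV-B. The log2 differences were -0.99 (standard error 0.30, adjusted p = 0.698) and -0.97 (standard error 0.34, adjusted p = 0.698). The gene with the largest difference in the other direction was also a Gln gene, Gln-CTG-7-1, at 56.1%, 44.4% and 48.0% in NT cells and 48.3%, 67.6% and 73.2% after UV-B, from a mean of 56.8 reads. Charging of the same family, from the reads that kept an end, was 55.8%, 44.3% and 47.9% in NT cells and 45.1%, 45.7% and 46.2% after UV-B, with overlapping groups. The log2 differences of all 9 genes tested were below 0 (median -0.21), beside 71 of all 168 genes (median 0.079). Without UV-B library 1, 8 of the 9 were below 0 (median -0.19), beside 122 of the 168 (median -0.21).

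For Cys, reads lacking either end made up 53.2%, 72.0% and 56.3% in NT cells and 47.6%, 48.4% and 29.3% after UV-B. The log2 difference was -1.14 (standard error 0.44, 95% interval -2.13 to -0.15, adjusted p = 0.296), and it was -0.78 without NT library 2 and -0.75 without UV-B library 3. Of 13 tRNA-Cys genes with enough reads, of 23 in the files, 12 had a log2 difference below 0 and 6 had all UV-B libraries below all NT libraries, where 11.9% of all genes did. Cys-GCA-11-1 lay between 75.0% and 80.1% in NT cells and between 44.4% and 66.7% after UV-B. Cys-GCA-4-1 had 52.1%, 70.7% and 52.1% in NT cells and 43.1%, 39.4% and 29.3% after UV-B. These genes are rare, with means of 71.3 and 150 reads, and their log2 differences were -1.54 (adjusted p = 0.558) and -1.25 (adjusted p = 0.698).

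**Figure D4:**
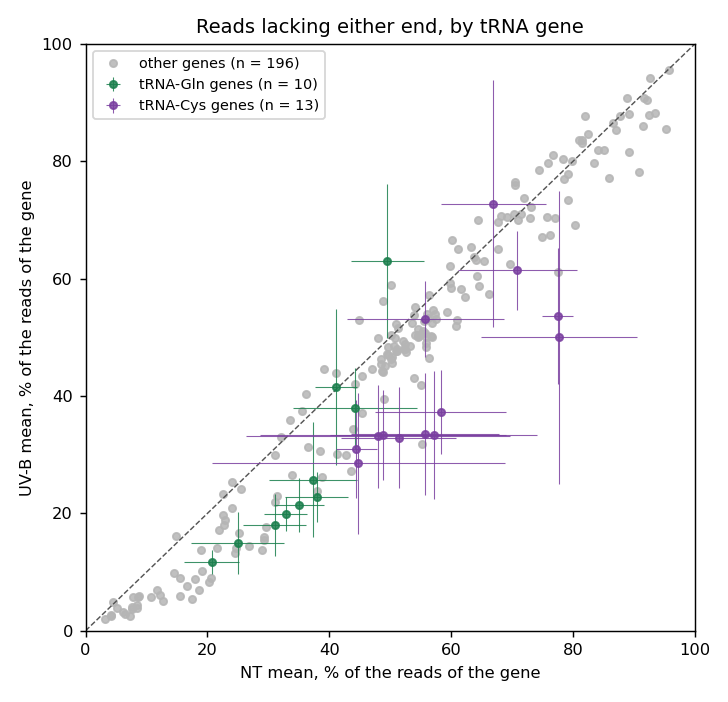
Reads lacking either end as % of the reads of a gene, with the mean of the 3 UV-B libraries plotted against the mean of the 3 NT libraries for 219 tRNA genes; bars are SDs (n = 3) for tRNA-Gln (green) and tRNA-Cys (purple) genes, and the dashed line marks equal values. Most tRNA-Gln and tRNA-Cys genes sit below the line, as do 176 of all 219 genes by their log2 difference.

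Among the 219 genes, limma called 0 (0%) at an adjusted p of 0.05 for reads lacking either end, and the 13 genes at an unadjusted p under 0.05 all had differences below 0. Quasi-binomial regression and the test named in the methods called 0. Besides the Gln and Cys genes, the lowest unadjusted p-values were those of Val-CAC-14-1 and Met-CAT-3-1. Val-CAC-14-1 had 95.5%, 94.3% and 96.1% of its reads without an end in NT cells and 88.6%, 81.2% and 86.8% after UV-B, a log2 difference of -1.69 (standard error 0.34, adjusted p = 0.462). Met-CAT-3-1, an elongator gene, had 87.5%, 93.0% and 92.1% in NT cells and 73.3%, 79.3% and 81.8% after UV-B, and its ratio of reads without to reads with an end was 0.354 times that of NT (95% interval 0.191 to 0.657, adjusted p = 0.558). The 3 genes above were Ser-GCT-1-1, Ser-GCT-2-1 and Leu-CAA-1-1, with log2 differences of 0.42, 0.24 and 0.38, and Ile-TAT-2-1 (0.53) and Leu-TAG-2-1 (0.47) had overlapping groups. In some families every gene tested lay below 0, a pattern chosen after its values were seen: 16 of 16 genes of Thr (median -0.68), 14 of 14 of Val (median -0.61) and 7 of 7 of Pro (median -0.67). The 23 of 26 genes of Ala below 0 went with a median of -0.75, whereas the genes of Leu had a median of 0.020, with 7 of 17 below 0. Over all 219 genes, 176 lay below 0, with a median of -0.29. By amino acid, NT library 2 was the highest of all libraries for Thr (56.5%), Val (60.8%), Pro (39.6%) and Ala (13.4%). For Thr and Pro, NT libraries 1 and 3 lay within the UV-B range. The medians of these families were not computed without NT library 2.

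Many reads of tRNA-Ser and tRNA-SeC, which seryl-tRNA synthetase charges, lacked either end. For Ser the share was 81.7%, 74.1% and 69.3% in NT cells and 75.8%, 76.6% and 75.8% after UV-B, a log2 difference of 0.056 (95% interval -0.71 to 0.82). For SeC it was 49.7%, 70.8% and 62.1% in NT cells and 51.4%, 54.6% and 49.7% after UV-B, a log2 difference of -0.55 (95% interval -1.39 to 0.30). Charging of Ser therefore rested on a mean of 1601 reads with an end per library, of 6382 reads in all, and that of SeC on 3184 of 7308. For Glu, Gly and Asn the log2 differences in reads lacking either end were -0.15, -0.23 and -0.27, with intervals that included 0.

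The composition of the tRNA pool was the third measure. tRNA-Glu and tRNA-Gly made up 30.8% ± 6.06 and 19.1% ± 5.56 of the tRNA reads in NT cells and 28.7% ± 3.06 and 14.3% ± 4.57 after UV-B (mean ± SD, n = 3). The 10 genes with the most reads in NT cells held 51.2%, 51.4% and 55.6% of the pool in NT cells and 46.8%, 49.9% and 56.7% after UV-B (p = 0.6, two-sided exact permutation test). Glu-CTC-1-1 alone held 16.2%, 17.4% and 25.1% in NT cells and 14.9%, 16.9% and 18.6% after UV-B. Shares depend on each other, and reads from fewer tRNA molecules cannot be told apart from less efficient capture. Over the 219 genes, the NT and UV-B means of log2 shares correlated with r = 0.975.

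**Figure D5:**
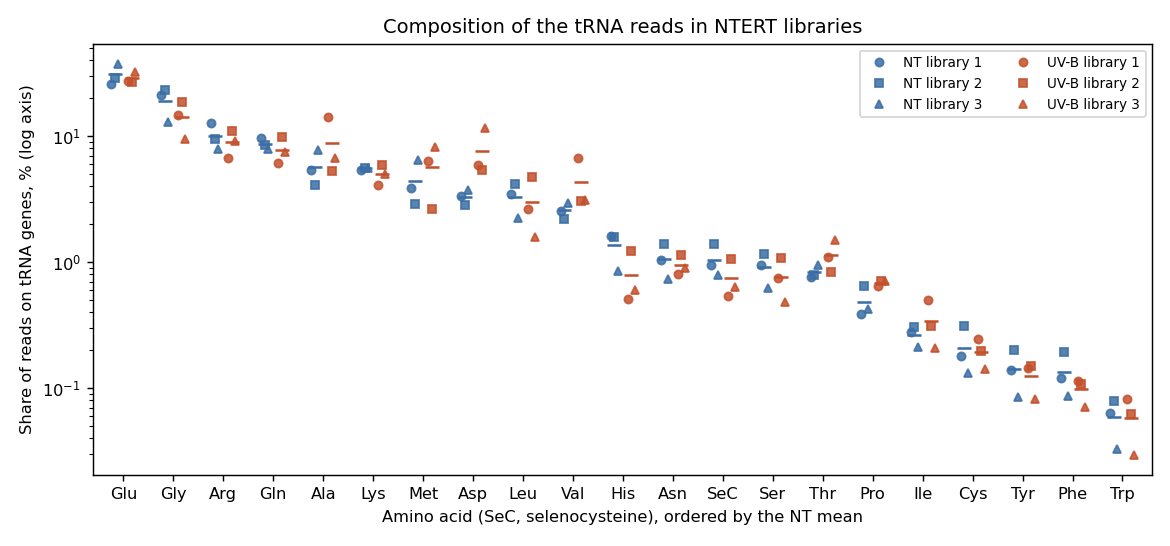
Share of the reads on tRNA genes by amino acid, in % on a log axis, in the 3 NT libraries (blue) and the 3 UV-B libraries (orange), with bars at the group means and the symbol giving the library number. For Asp, Val and Pro all UV-B libraries lie above all NT libraries, with Asp at 5.34% to 11.5% after UV-B and 2.82% to 3.73% in NT.

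By amino acid, after scaling by the trimmed mean of M values (TMM), limma called 0 of 21 shares (0%) at an adjusted p of 0.05, and 2, Asp and His, at an unadjusted p under 0.05. In shares of the reads without TMM scaling, Asp, Val and Pro (14.3%) had all UV-B libraries above all NT libraries. No amino acid had all below (0%). The log2 differences, intervals and p-values of shares were taken after TMM scaling, with factors from 0.737 to 1.28. Whether groups overlapped was read before that scaling, here and below, and can differ on the scaled values. Asp made up 3.33%, 2.82% and 3.73% of the tRNA reads in NT cells and 5.91%, 5.34% and 11.5% after UV-B. The share was 2.15-fold that of NT (95% interval 1.23 to 3.77, log2 difference 1.11, standard error 0.41, adjusted p = 0.164). Without NT library 3 it passed the threshold (log2 difference 1.46, adjusted p = 0.0200), and leaving out UV-B library 3, the highest, gave a log2 difference of 0.66 (adjusted p = 0.703).

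tRNA-Asp has 3 genes in the files, and Asp-GTC-2-1 held most of the reads. Gene shares are given as reads per 1000000 reads on tRNA genes (RPM). Asp-GTC-2-1 had 30624, 22902 and 34406 RPM in NT cells and 54864, 49333 and 109545 RPM after UV-B, a log2 difference of 1.19 (standard error 0.50, adjusted p = 0.724). Asp-GTC-1-1 had 1475, 1486 and 1759 RPM in NT cells and 2479, 2610 and 5344 after UV-B, a log2 difference of 1.04 (standard error 0.49, adjusted p = 0.724). In both genes the groups were separate in RPM before TMM scaling, whereas Asp-GTC-3-1 had a log2 difference of -0.71 and overlapping groups. Separation on the scaled values was not tested. Charging of Asp-GTC-2-1 was 44.8%, 56.9% and 53.5% in NT cells and 75.3%, 48.4% and 50.4% after UV-B, with overlapping groups and a log2 difference of 0.41, or -0.13 without UV-B library 1.

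His, which has a single tested gene, made up 1.62%, 1.60% and 0.854% of the reads in NT cells and 0.513%, 1.24% and 0.603% after UV-B. The log2 difference was -0.86 (95% interval -1.67 to -0.052, adjusted p = 0.390), or -0.45 without UV-B library 1, and NT library 3 lay within the UV-B range. Val made up 2.57%, 2.22% and 2.96% in NT cells and 6.68%, 3.08% and 3.11% after UV-B, a log2 difference of 0.62 (adjusted p = 0.748). Pro made up 0.391%, 0.643% and 0.427% in NT cells and 0.644%, 0.709% and 0.713% after UV-B, a log2 difference of 0.52 (adjusted p = 0.748). NT library 2 and UV-B library 1 had nearly the same share for Pro. The log2 differences of SeC, Ser, Gly and Asn were -0.53, -0.30, -0.45 and -0.14, and those of Glu and Cys were -0.11 and -0.057. Without UV-B library 1, those of SeC, Ser and Gly were -0.17, -0.15 and -0.33, and those of Asn and Glu turned to 0.14 and 0.090. With each library left out in turn, Ser lay between -0.41 and -0.10, the latter without UV-B library 3.

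Among the 219 genes, limma called 0 (0%) at an adjusted p of 0.05 for their share, and 8 at an unadjusted p under 0.05. In RPM before TMM scaling, all UV-B libraries lay above all NT libraries for 12 genes (5.48%) and below for 4 (1.83%). Of these 4, 2 carry Leu, Leu-TAA-2-1 and Leu-TAA-3-1. Leu-TAA-1-1 had the lowest p, with 1103, 3224 and 4092 RPM in NT cells and 705, 1201 and 440 after UV-B. NT library 1 lay within the UV-B range. Its log2 difference was -1.78 (standard error 0.52, 95% interval -2.89 to -0.67, adjusted p = 0.724). Leu-TAA-3-1 had 160, 181 and 119 RPM in NT cells and 83.3, 117 and 51.8 after UV-B, with separate groups and a log2 difference of -0.94 (adjusted p = 0.724). Leu-CAA-2-1, at -1.16, lay in the same direction, and Leu-AAG-2-1, at 0.95, in the other. The remaining genes at an unadjusted p under 0.05 were Asp-GTC-2-1, Ala-AGC-3-1 (1.17), Cys-GCA-14-1 (-1.01) and Gly-CCC-1-1 (-0.92), the last 3 with overlapping groups. By family, 7 of 7 genes of Pro, 12 of 14 of Val and 13 of 16 of Thr lay above 0, and 16 of 18 of Ser and 9 of 10 of Asn below (14 and 7 without UV-B library 1), a listing chosen after the values were seen. Over all 219 genes, 101 lay above 0 and 118 below, or 108 and 111 without UV-B library 1.

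Summed over the TAA genes, the Leu-TAA isoacceptor was the 1 of 48 isoacceptors (2.08%) that passed an adjusted p of 0.05 in limma for its share, a grouping added after the data had been seen. It had 1721, 4190 and 4599 RPM in NT cells and 1175, 1799 and 707 after UV-B. In these values before TMM scaling, 1 NT library lay within the UV-B range. Its log2 difference, taken after the scaling, was -1.51 (adjusted p = 0.0272 in limma). The call was lost without NT library 2, NT library 3, UV-B library 1 or UV-B library 3, with adjusted p from 0.193 to 0.632, and with library totals in place of TMM (adjusted p = 0.239). Of the reads of Leu-TAA-1-1, 88.9%, 93.4% and 98.2% lacked either end in NT cells and 87.7%, 90.5% and 86.4% after UV-B. Counting only reads with an end, the difference of the isoacceptor was -0.53 on the log2 scale (adjusted p = 0.648).

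The amino acids were also grouped by how they are charged. The synthetases fall into class I and class II by the fold of their catalytic domain, and those for Arg, Asp, Gln, Glu, Ile, Leu, Lys, Met and Pro sit in the multi-synthetase complex. In none of these lists did any gene pass the threshold in any measure, as in the full set. For charging, the median log2 difference was 0.19 over 81 class I genes and 0.048 over 86 class II genes (SeC in neither), beside 0.079 over all 168. It was 0.067 over the 79 genes of the complex and 0.11 over the 69 genes of the essential amino acids. These positive medians rested on UV-B library 1: without it they were -0.13 for class I, -0.29 for class II, -0.18 for the complex and -0.22 for the essential amino acids, beside -0.21 over all genes. Genes of Glu, Cys and Gly had a median of 0.50, with 17 of 20 above 0, and without UV-B library 1 a median of 0.13, with 12 of 20 above 0. Of the 20, 4 had all UV-B libraries above, where 4.76% of all genes did. Genes of Leu, Ser and SeC, whose tRNAs have a long variable arm, had a median of -0.016, with 12 of 25 above 0, and -0.21 with 10 above 0 without UV-B library 1.

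For reads lacking either end, the medians were -0.28 for class I and -0.30 for class II genes, beside -0.29 over all 219. The median was -0.24 over the 97 genes of the complex, -0.25 over the 93 genes of the essential amino acids and -0.27 over the 31 genes of Glu, Cys and Gly, of which 8, the 6 Cys genes among them, had all UV-B libraries below (11.9% of all genes). It was -0.046 over the 36 genes with a long variable arm, of which 19 lay below 0. Genes whose anticodon starts with A, which is edited to inosine in the mature tRNA, had a median of -0.60, with 41 of 47 below 0. Of all 219 genes, 176 lay below 0. NT library 2 was the highest of the 6 for Ala-AGC, Arg-ACG, Ile-AAT, Leu-AAG, Pro-AGG, Thr-AGT and Val-AAC, but not for Ser-AGA. The median of this list was not computed without NT library 2. Genes of anticodons in which G is modified to queuosine, those of Asn, Asp, His and Tyr, had a median of -0.17, with 13 of 17 below 0. Genes of the families that contain introns (Tyr-GTA, Leu-CAA, Ile-TAT and Arg-TCT), which are spliced before use, had a median of -0.030, with 8 of 14 below 0, or -0.35 with 11 below 0 without UV-B library 1.

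For the share of the pool, the genes with an anticodon starting with A had a median log2 difference of 0.27, with 36 of 47 above 0, beside -0.057 over all 219 genes. The long variable arm genes had a median of -0.34, with 28 of 36 below 0, the queuosine-type genes -0.46 with 14 of 17 below 0, and the intron-containing families -0.33 with 11 of 14 below 0. Without UV-B library 1, the medians of these lists were 0.26, -0.28, -0.12 and -0.088. The medians of class I and class II genes were -0.012 and -0.090, that of the complex was -0.079, that of the essential amino acids 0.076, and that of Glu, Cys and Gly -0.19. Without UV-B library 1 they were 0.034, -0.045, 0.010, -0.032 and -0.13 in the same order, so that class I, the complex and the essential amino acids changed sign. For charging, the same lists had medians of 0.055 (anticodons starting with A), 0.14 (queuosine-type) and -0.016 (intron-containing families), which turned to -0.33, -0.087 and 0.31 without UV-B library 1.

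The UV-B libraries were set beside the MEF libraries with and without HF, as a treatment known to block the charging of a single tRNA family. The log2 difference in charging of tRNA-Pro was -0.082 after UV-B (-0.52 without UV-B library 1) and -2.31 under HF, and the UV-B difference minus the HF difference was 2.23 (standard error 0.81, 95% interval 0.52 to 3.95, adjusted p = 0.200 in limma). For this difference limma called 0 of 21 amino acids (0%) at an adjusted p of 0.05, and 3 at an unadjusted p under 0.05. With the median of each library subtracted, Pro was the 1 amino acid of 21 (4.76%) that passed, at 3.96 (adjusted p = 0.000575). For Ser, UV-B minus HF was -1.04 (95% interval -2.32 to 0.23), and for SeC -1.05 (95% interval -2.42 to 0.32), and with the library medians subtracted both turned positive, at 0.68 each. Reads lacking either end made up 3.39% to 13.1% of the tRNA reads in the 6 MEF libraries, below the 37.2% to 52.8% in the 6 NTERT libraries. Treatment, species and cell type cannot be told apart in this comparison.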

How the data were processed

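Total RNA was oxidized with periodate and deacylated, ligated to a barcoded adapter and sequenced with paired ends. Per the labels and the methods of the study, the authors trimmed the reads (Trim Galore and cutadapt are named), aligned them with Bowtie2 to high-confidence human tRNA genes (GRCh38) and removed duplicates. The deposited files give, per tRNA gene, whole-number counts of all reads, reads ending in CCA and reads ending in CC, joined in 1 field and not normalized. Lines for reads on no tRNA gene and for yeast sequences were left out of the counts by gene, isoacceptor and amino acid. Reads on no tRNA gene entered only the percentage of reads on tRNA genes and the values under Other observations. No coordinates or sequences of these genes were used here.

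Groups came from the labels. Charging (CCA over CC) and reads lacking either end (all minus both, over both) were tested as log2 ratios with 0.5 added to each count, and shares of the pool as log2 RPM, with the same 0.5 added, after TMM scaling (trims of 30% and 5%). The test was limma 3.58.1 in R 4.3.3 on the 6 NTERT libraries, with Benjamini-Hochberg adjustment over all features with a mean of at least 50 reads and a threshold of 0.05; intervals are 95%. Whole-pool values were compared by exact permutation over 20 labelings. UV-B minus HF was a contrast over 12 libraries. Tables used Python with pandas and scipy.

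The members and lists were chosen with earlier results of these data known. Named were Glu, Cys, Gly, Ser and Asn, the 3 amino acids and 5 genes with the lowest p in each direction, abundant genes, Ser, SeC and initiator Met genes. Other genes with separate groups, and the lowest and highest genes of a family, were named after their values were seen. Alternatives were another pseudocount, other minimums, other tests, library medians, a replicate block, other totals and each library left out; leaving a library out of the lists and of the median over genes was chosen after seeing the data. The scripts were tested on simulated data.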

Additional observations from a re-analysis of the deposited data

How the results depend on the processing

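The counts of amino acids and genes past the threshold for charging and for reads lacking either end were 0 under every alternative run, including 1 library left out in turn. For the share of the pool by amino acid the count was 1 with a replicate block and 0 to 1 with 1 library left out, the 1 being Asp in both cases (adjusted p = 0.0120 with the block), without NT library 3 in the latter. By gene it was 1 with a replicate block (Leu-TAA-1-1, adjusted p = 0.00985 in limma), 1 with isoacceptors in place of genes and 0 to 2 with 1 library left out. The 2 were Ala-AGC-2-1 and Ala-AGC-5-1 without NT library 3, with log2 differences of 2.31 and 2.31. Same-numbered deviations from the group means correlated at -0.32, 0.13 and -0.34 for charging and at -0.48, 0.50 and 0.42 for the share. For reads lacking either end they correlated at -0.30, 0.27 and 0.30. For the share, libraries 2 and 3 correlated at -0.59 and -0.69 across numbers. Whether the replicate numbers pair the libraries is not stated by the labels and is not settled by these values. The block changed no other count. The whole-pool charging difference was -0.437 percentage points as a median over genes, and -3.22 to 5.45 with 1 library left out, the negative value being that without UV-B library 1. The count for UV-B minus HF was 1 with the library median subtracted and 0 to 8 with 1 library left out; the 8, without MEF NT library 3, did not include Pro (adjusted p = 0.0538), and 1, Pro, was called without MEF HF library 1.

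Some log2 differences changed sign. Without UV-B library 1, charging of Met, Val and Asp turned from 0.84, 0.30 and 0.31 to -0.60, -0.30 and -0.23, among 7 of 21 amino acids that did so. Cys was 0.082 with quasi-binomial regression, 0.29 with the library median subtracted and -0.23 to 0.27 with 1 library left out, and the median made Asn 0.14 and Trp 0.088. In reads lacking either end, quasi-binomial regression gave 0.14 for Glu and -0.13 for Tyr, and the library median gave 0.13 for Glu, 0.047 for Gly and 0.015 for Asn. Tyr differed by -0.024 percentage points in the test named in the methods. With 1 library left out, the ranges were -0.51 to 0.39 for Tyr, -0.31 to 0.098 for Glu, -0.17 to 0.33 for Ser and -0.15 to 0.32 for His. In the share of the pool, reads with an end gave 0.42 for Cys and 0.11 for Cys-GCA-14-1, and CCA reads gave 0.14 for Glu, 0.44 for Cys and 0.41 for Cys-GCA-14-1. With 1 library left out, the ranges were -0.10 to 0.17 for Cys, -0.30 to 0.30 for Glu and -0.21 to 0.14 for Asn. The cause of these changes was not tested. The 3 libraries per group limit the precision, and genes with few reads have counting error as well.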

Other observations

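Reads that aligned to no tRNA gene also carried CCA or CC ends in the NTERT libraries. Of those with an end, the percentage ending in CCA was 12.6%, 13.4% and 33.8% in NT cells and 21.2%, 13.8% and 20.3% after UV-B, so the groups overlapped.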
